A study of Homo sapiens with 10 samples.

Results

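The membrane protein genes TMEM98, ADGRG2 (also written GPR64), FAT4, TENM2 and CDH11 were examined across breast cancer cells (BCCs) sorted by activity of the Oct4A promoter. The genes were chosen by name, from earlier results of these same arrays, for their level in Oct4hi BCCs or their difference between Oct4hi and Oct4low BCCs. They are 5 of the 12082 genes with a value in the table, and 8 probe sets of the array carry their symbols, 4 of them for CDH11 and 1 for each other gene. All 8 probe sets passed the filter on low values. ADGRG2 was above the median of its array only in the 4 Oct4hi arrays, so it passed through Oct4hi alone, and FAT4 was above it only in the 4 Oct4low and 2 Oct4med arrays. By the values that chose them, TMEM98, ADGRG2 and TENM2 were highest in Oct4hi BCCs, and FAT4 and CDH11 were lowest there, so that the 5 genes are not all marked by a high level in Oct4hi BCCs.

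The cells were MDA-MB-231, a basal-like human breast cancer line from a metastatic site. All groups carried the plasmid pEGFP1-Oct3/4, which places GFP under the Oct4A promoter, and all were neomycin-selected stable transfectants. A cell sorter separated Oct4low BCCs (the 5% of cells with the least GFP, 4 arrays), Oct4hi BCCs (the 5% with the most GFP, 4 arrays) and Oct4med BCCs (cells between these extremes, 2 arrays). Total RNA (100 ng) was measured on Affymetrix U133 Plus 2.0 arrays, and the deposited values are log2 intensities. The gates are those of the labels, and the study's text does not give the Oct4low gate the same way throughout. GFP reports the activity of a transfected promoter, and no array of unsorted or untransfected cells was analysed here. The labels name no treatment besides the selection.

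Adhesion proteins of the cell surface hold cells to one another or to the matrix and pass signals inward. CDH11 is a type II classical cadherin of mesenchymal cells and osteoblasts that binds its own kind on neighbouring cells and catenins inside the cell. FAT4 is a giant atypical cadherin that binds the Dachsous cadherin DCHS1 and acts in planar polarity and the Hippo pathway. TENM2, a teneurin, binds latrophilins and FLRT proteins, best known from synapses. ADGRG2 belongs to the adhesion G protein-coupled receptors and is best known from the ducts of the male reproductive tract. TMEM98 is a single-pass membrane protein that binds MYRF, a membrane-bound transcription factor, and holds back its self-cleavage.

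Promoter sequences are shown for the members of the set that were higher in Oct4hi BCCs and have a window in the RefSeq table used here (build GRCh38.p14, 250 bases before to 50 after the gene start). The table matched 2 of the 5 genes, with 2 windows for TENM2 and 1 for ADGRG2. TMEM98, FAT4 and CDH11 were not matched. The octamer ATGCAAAT, a motif bound by Oct-family factors, was searched on both strands as this letter string and its reverse complement ATTTGCAT. It occurred in the first TENM2 window (chr5:167072992-167073291, plus strand), 70 to 63 bases before the start, and is written there in capitals. The second TENM2 window (chr5:167754679-167754978, plus strand) and the ADGRG2 window (chrX:19122419-19122718, minus strand) held no match, and capitals mark CG pairs in those windows.
TENM2 first window: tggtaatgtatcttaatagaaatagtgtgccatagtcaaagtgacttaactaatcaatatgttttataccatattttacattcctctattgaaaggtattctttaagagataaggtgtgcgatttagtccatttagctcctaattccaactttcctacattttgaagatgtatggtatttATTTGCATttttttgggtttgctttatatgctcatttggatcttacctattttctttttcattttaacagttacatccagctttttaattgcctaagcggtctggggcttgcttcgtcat
TENM2 second window: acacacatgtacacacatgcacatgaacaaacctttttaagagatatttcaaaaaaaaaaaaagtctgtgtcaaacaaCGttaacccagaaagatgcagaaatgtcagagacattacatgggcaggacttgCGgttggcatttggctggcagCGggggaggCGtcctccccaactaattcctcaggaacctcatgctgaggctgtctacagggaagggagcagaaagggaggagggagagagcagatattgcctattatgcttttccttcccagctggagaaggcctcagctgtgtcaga
ADGRG2 window: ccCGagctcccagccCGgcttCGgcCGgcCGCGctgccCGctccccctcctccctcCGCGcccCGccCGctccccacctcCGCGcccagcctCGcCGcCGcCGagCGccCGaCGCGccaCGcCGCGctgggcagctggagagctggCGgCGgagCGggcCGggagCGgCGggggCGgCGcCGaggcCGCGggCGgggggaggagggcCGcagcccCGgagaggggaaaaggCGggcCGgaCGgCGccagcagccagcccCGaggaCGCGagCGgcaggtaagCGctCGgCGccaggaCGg
The ADGRG2 window was 83.3% G and C with 50 CG pairs. The TENM2 windows were 32.0% and 47.3% G and C, with 3 and 4 CG pairs. Of all 35116 windows of this length in the table, 623 (1.77%) held the octamer. A match describes the letters only, and which TENM2 start was in use in these cells was not measured.

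TENM2 had the largest differences of the 5 genes. It read 9.16, 9.21, 9.18 and 9.07 on the Oct4low arrays, 8.28 and 8.40 on the Oct4med arrays, and 10.64, 10.80, 10.70 and 10.76 on the Oct4hi arrays (log2 intensity). Every Oct4hi array was above every other array, and both Oct4med arrays were below all Oct4low arrays. The share of all tested probe sets that separate the subsets in such ways was not counted, here or for the genes below. The group means were 9.16 ± 0.06 (SD, n = 4), 8.34 ± 0.09 (SD, n = 2) and 10.73 ± 0.07 (SD, n = 4) in Oct4low, Oct4med and Oct4hi BCCs. Oct4hi BCCs were 2.97-fold above Oct4low and 5.23-fold above Oct4med BCCs, which is given without a test because the gene was chosen on these values. In bulk RNA, fewer cells with a transcript and less of it per cell cannot be told apart.

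TMEM98 followed the order of GFP. It read 6.34, 6.33, 6.15 and 6.16 on the Oct4low arrays, 6.60 and 6.65 on the Oct4med arrays, and 7.71, 7.67, 7.63 and 7.78 on the Oct4hi arrays. The 3 subsets did not overlap, with Oct4med BCCs nearer to Oct4low. The means were 6.25 ± 0.10 (SD, n = 4), 6.62 ± 0.04 (SD, n = 2) and 7.70 ± 0.07 (SD, n = 4), so that Oct4hi BCCs were 2.74-fold above Oct4low and 2.10-fold above Oct4med BCCs.

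ADGRG2 was below the array medians outside Oct4hi BCCs. It read 4.69, 4.49, 4.53 and 4.68 on the Oct4low arrays, 4.57 and 4.38 on the Oct4med arrays, and 5.64, 5.60, 5.67 and 5.45 on the Oct4hi arrays, where array medians ran from 5.05 to 5.14. The Oct4low and Oct4med arrays overlapped and the Oct4hi arrays lay above all of them. The means were 4.60 ± 0.10 (SD, n = 4), 4.47 ± 0.13 (SD, n = 2) and 5.59 ± 0.10 (SD, n = 4), a 1.99-fold difference between Oct4hi and Oct4low BCCs and 2.17-fold between Oct4hi and Oct4med BCCs.

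FAT4 ran the other way. It read 6.10, 5.80, 5.89 and 5.73 on the Oct4low arrays, 5.56 and 5.64 on the Oct4med arrays, and 4.60, 4.91, 4.79 and 4.73 on the Oct4hi arrays. The Oct4hi arrays were the lowest and all below their array medians, and both Oct4med arrays were just under the lowest Oct4low array. The means were 5.88 ± 0.16 (SD, n = 4), 5.60 ± 0.05 (SD, n = 2) and 4.75 ± 0.13 (SD, n = 4). Oct4low BCCs were 2.18-fold above Oct4hi, and Oct4med BCCs 1.80-fold above Oct4hi.

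CDH11 was also lowest in Oct4hi BCCs, on each of its 4 probe sets. The brightest, 207173_x_at, read 11.75, 11.83, 11.81 and 11.76 on the Oct4low arrays, 11.48 and 11.56 on the Oct4med arrays, and 11.01, 11.03, 10.92 and 10.98 on the Oct4hi arrays. These 3 subsets did not overlap. Its means were 11.79 ± 0.04 (SD, n = 4), 11.52 ± 0.05 (SD, n = 2) and 10.99 ± 0.05 (SD, n = 4), so that Oct4low BCCs were 1.74-fold above Oct4hi. The suffix _x_at marks probes that may also match other transcripts.

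The other CDH11 probe sets gave Oct4low to Oct4hi ratios of 1.54 (207172_s_at), 1.85 (236179_at) and 1.96 (239286_at). On every CDH11 probe set, the 4 Oct4hi arrays lay below all other arrays. The Oct4med arrays overlapped the Oct4low arrays on 207172_s_at and 236179_at and not on the other pair. Across the 10 arrays Pearson's r between CDH11 probe sets ran from 0.910 to 0.996, which describes arrays that share 3 subsets.

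**Figure D1:**
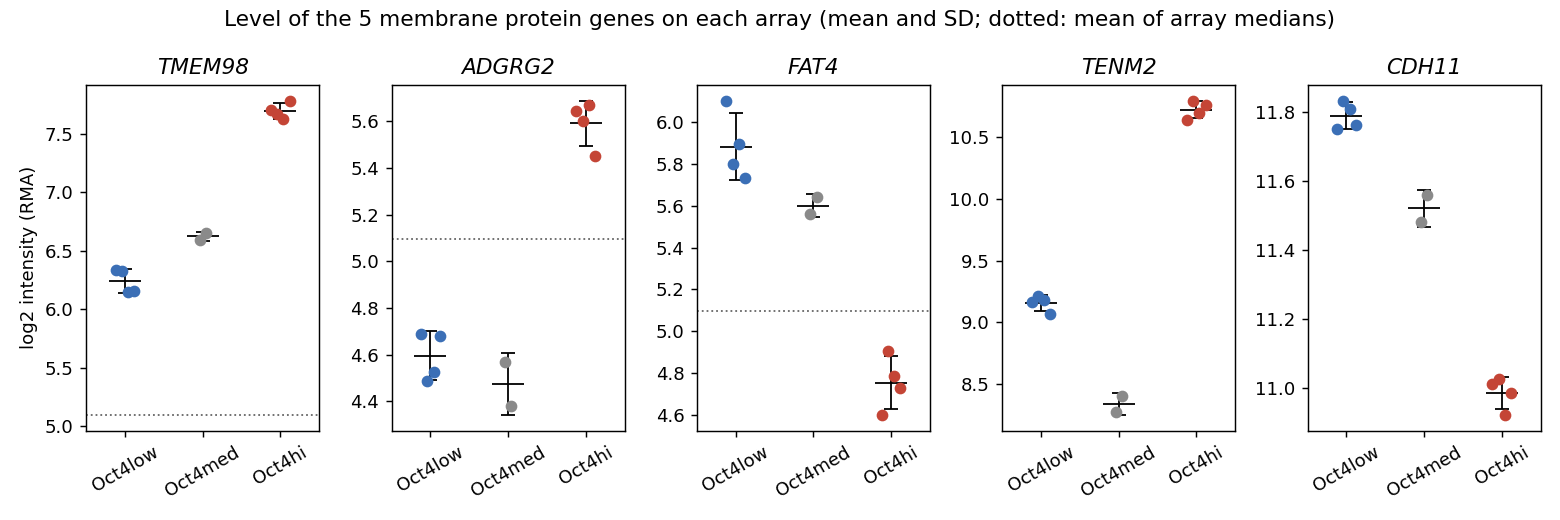
Log2 intensity (vertical axis, a separate scale in each panel) of the brightest probe set of each gene on the 4 Oct4low, 2 Oct4med and 4 Oct4hi arrays. Points are arrays, bars the mean and SD, and the dotted line the mean of the array medians where it falls in range. TMEM98, ADGRG2 and TENM2 are highest and FAT4 and CDH11 lowest in Oct4hi BCCs, and TENM2 is lowest in Oct4med BCCs.

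The comparison of Oct4med with Oct4low BCCs asked where the middle subset stood, and it was not used to choose the genes, although it shares the Oct4low arrays with the comparison that was. TENM2 fell by 0.82 on the log2 scale in Oct4med BCCs (SE 0.09, limma adjusted p = 6.33e-05), with both Oct4med arrays below all 4 Oct4low arrays. TMEM98 rose by 0.38 (SE 0.09, limma adjusted p = 0.012), and both Oct4med arrays were above all 4 Oct4low arrays. The share of all tested probe sets that separated these arrays in either way was not counted, so the separation adds nothing to the tests. The differences of these genes in Oct4med BCCs had opposite signs. The TMEM98 call was lost without Oct4med replicate 2 (limma adjusted p = 0.0648), with the replicate block (limma adjusted p = 0.0722) and with the methods' t-test (adjusted p = 0.0741).

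CDH11 fell by 0.27 (SE 0.08, limma adjusted p = 0.0319) on its brightest probe set. On 239286_at it fell by 0.27 (limma adjusted p = 0.0424), and on 207172_s_at and 236179_at the differences were -0.14 and -0.15 with limma adjusted p = 0.306 and 0.414. The call on the brightest probe set had an adjusted p of 0.078 without Oct4low replicate 2, 0.0525 without Oct4low replicate 3, 0.167 without Oct4med replicate 1 and 0.0588 without Oct4med replicate 2 (limma). The CDH11 call stood in 4 of the 11 other alternatives. With the values quantile normalized again the difference was -0.14 (limma adjusted p = 0.188).

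FAT4 did not pass the test, with a difference of -0.28 (95% interval -0.53 to -0.03, limma adjusted p = 0.104). ADGRG2 did not pass it either, with a difference of -0.12 (95% interval -0.34 to 0.10, limma adjusted p = 0.411). Intervals here are for a single probe set and are not adjusted for the number tested. Among all 7644 tested genes, limma called 5.68% higher and 11.7% lower in this comparison.

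Placed between the Oct4low mean (0%) and the Oct4hi mean (100%), Oct4med BCCs stood at 26.1% for TMEM98, 25% for FAT4 and 33.4% for CDH11 on its brightest probe set, with 16.8% to 28.3% on the other CDH11 probe sets. The means of these genes lay between those of the outer subsets, and the Oct4med step passed the test for TMEM98 and for CDH11 on 207173_x_at and 239286_at, not for FAT4 or the other CDH11 probe sets. ADGRG2 stood at -12.3% and TENM2 at -52.0%, outside the span from Oct4low to Oct4hi. For ADGRG2 the Oct4med and Oct4low levels did not differ beyond their spread.

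**Figure D2:**
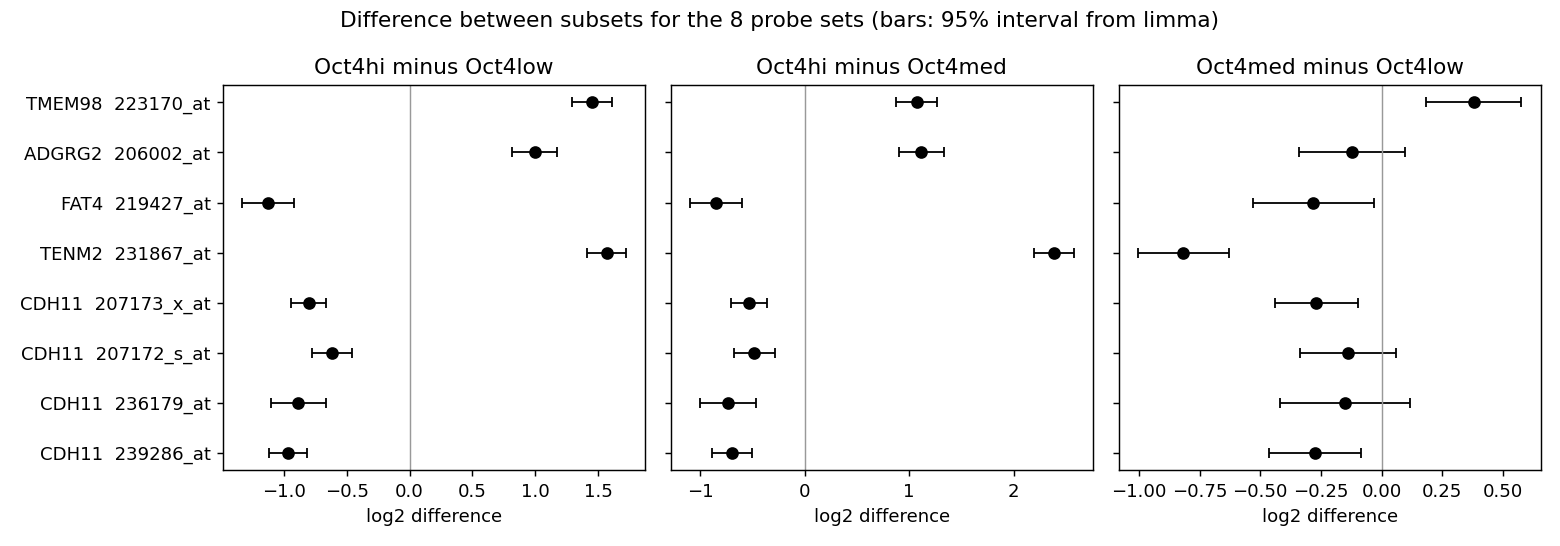
Log2 difference (horizontal axis, a separate scale in each panel) for the 8 probe sets in Oct4hi minus Oct4low, Oct4hi minus Oct4med and Oct4med minus Oct4low BCCs. Points are limma estimates and bars their 95% intervals. The left and middle panels hold the values the genes were chosen on, and in the right panel TMEM98 lies above 0 while TENM2, at -0.82, lies farthest below it.

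Oct4hi arrays differed from Oct4low arrays in many genes, with 20.4% of tested genes called higher and 14.7% lower. Against Oct4med BCCs, 18.2% were called higher and 9.62% lower in Oct4hi BCCs. The authors' filter kept features that vary between arrays, which bears on these shares. Arrays of a subset correlated with r from 0.987 to 0.994 over tested probe sets and arrays of different subsets from 0.957 to 0.981, and none were identical. Of 7 basal-like markers in the table, CD44, EGFR, CAV1, CAV2 and SPARC were above the median of every array, and 3 of these 5 were lower in Oct4hi than in Oct4low BCCs, with list means from 8.03 to 8.11 in Oct4low, 8.04 to 8.10 in Oct4med and 7.84 to 7.93 in Oct4hi arrays.

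Markers of other cells were read beside these genes. Being above the median of every array did not set the basal-like list apart. It also held for 6 luminal markers, ESR1 among them, for 5 stromal, 2 leukocyte and 2 erythroid markers. ESR1, the stromal DCN and the basal-like EGFR were read on _x_at probe sets, which may also match other transcripts. Their Oct4low means were 6.08, 5.61 and 5.79, where array medians ran from 5.05 to 5.14. A level above the median is not a test of expression. Of 11 stromal markers in the table, 6 were tested and 0 were called in Oct4hi against Oct4low BCCs by limma. The mean log2 level of all 11, tested or not, ran from 4.99 to 5.06 in Oct4low arrays. It ran from 5.03 to 5.08 in Oct4med and from 5.04 to 5.13 in Oct4hi arrays. COL1A1 alone of the 6 tested was called in Oct4med against Oct4low BCCs, at -0.42. Of 10 luminal markers, 7 were tested and 3 were lower in Oct4hi than in Oct4low BCCs, namely GATA3 at -0.76, MLPH at -0.87 and TFF1 at -0.48. In Oct4med against Oct4low BCCs 3 were lower, TFF1 at -1.32, GATA3 at -0.38 and XBP1 at -0.31, and TFF1 was 0.84 higher in Oct4hi than in Oct4med BCCs. The luminal list mean ran from 6.49 to 6.56 in Oct4low, from 6.29 to 6.37 in Oct4med and from 6.25 to 6.34 in Oct4hi arrays. Of 6 leukocyte markers, 3 were tested, 0 were called by limma in Oct4hi against either other subset, and CD14 fell by 0.50 in Oct4med against Oct4low BCCs, with list means from 4.43 to 4.58 in Oct4low, 4.44 to 4.56 in Oct4med and 4.49 to 4.69 in Oct4hi arrays. Of 3 erythroid markers, 2 were tested. HBE1, an embryonic globin, was higher by 0.73 in Oct4hi and by 0.68 in Oct4med than in Oct4low BCCs. The erythroid list mean ran from 6.10 to 6.19 in Oct4low, 6.30 to 6.37 in Oct4med and 6.31 to 6.49 in Oct4hi arrays. The part of any of these in the differences was not tested.

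The partners and families of the 5 genes were taken from 9 lists of 160 genes, without the 5 themselves, of which 106 were in the table and 63 were tested. In Oct4hi against Oct4low BCCs, 16 of the 63 (25.4%) were higher and 17 (27.0%) lower, beside 20.4% and 14.7% of all tested genes. The 16 became 9 without probe sets named _x_at or _s_at. Their median difference was 0.00 against 0.02 for all tested genes. In Oct4med against Oct4low BCCs, 5 (7.94%) were higher and 8 (12.7%) lower, beside 5.68% and 11.7% of all tested genes. In Oct4hi against Oct4med BCCs 8 (12.7%) were higher and 13 (20.6%) lower, beside 18.2% and 9.62%. Without Oct4med replicate 1, the 8 lower in Oct4med BCCs became 3, and the 8 higher and 13 lower in Oct4hi BCCs became 3 and 6. The counts of single lists below stand beside the same shares of all tested genes, and lists of this size were not set apart from them by any test.

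For CDH11, the list of classical and type II cadherins had 3 tested genes, and 0 passed the test in any comparison by limma. In Oct4hi minus Oct4low BCCs their differences ran from -0.18 (CDH3, limma adjusted p = 0.179) to -0.03. The catenins and junction adaptors, which tie cadherins to the cytoskeleton, had 7 tested genes with 2 higher and 2 lower in Oct4hi BCCs. CTNNB1, which encodes beta-catenin, fell by 0.61 in Oct4hi (limma adjusted p = 0.00107) and by 0.95 in Oct4med BCCs (limma adjusted p = 0.000345) against Oct4low, and its dimmer probe set gave -0.51 and -0.04. JUP, plakoglobin, fell by 0.48 in Oct4hi BCCs. PKP4, a p120-family catenin, rose by 0.61 and TJP1, the tight junction scaffold ZO-1, rose by 0.52.

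Of the protocadherins, 2 were tested. PCDH7 fell by 0.94 in Oct4hi (limma adjusted p = 1.45e-05) and by 0.52 in Oct4med BCCs (limma adjusted p = 0.00591), with its Oct4med mean between the other means. Its Oct4hi mean, 4.85, was below the lowest array median, 5.05. PCDH18 differed by 0.02 in Oct4hi BCCs (limma adjusted p = 0.923).

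For FAT4, the list of Fat, Dachsous and planar polarity genes had 10 tested genes, 2 higher and 4 lower in Oct4hi BCCs. DCHS1, the FAT4 ligand, differed by 0.09 (limma adjusted p = 0.541). FZD3, a Frizzled receptor, rose by 0.56 on its brightest probe set and read 0.07 on another. PTK7 rose by 0.34, while DVL3 fell by 0.37, CELSR3 by 0.31 and CELSR1, read on its brightest probe set alone, by 0.26. FJX1, related to the kinase that modifies Fat cadherins, fell by 0.33 in Oct4med BCCs and read 0.07 in Oct4hi BCCs.

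The Hippo pathway, a kinase cascade that restrains the co-activators YAP and TAZ, had 14 tested genes, 4 higher and 3 lower in Oct4hi than in Oct4low BCCs (20.4% and 14.7% of all tested genes). WWTR1, which encodes TAZ, fell by 0.58 (limma adjusted p = 0.000111) and its other probe set read -0.17. VGLL4 fell by 0.41. SAV1, the scaffold of the kinases, rose by 0.63 (limma adjusted p = 0.00223), and its 4 other probe sets read from 0.19 to 0.57. In Oct4med against Oct4low BCCs, LATS2 fell by 0.45, VGLL4 by 0.33 and NF2 by 0.39 on its brightest probe set. The other tested NF2 probe sets read -0.19 and -0.20 (limma adjusted p = 0.307 and 0.357). WWC1 rose by 0.43 on its brightest probe set and read from -0.16 to 0.44 on its other tested probe sets.

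For TENM2, the list of teneurins, latrophilins and FLRT partners had 5 tested genes. In Oct4hi BCCs TENM3 rose by 0.36 on its brightest probe set (limma adjusted p = 0.00779), reading 0.13 on the other, and FLRT1 by 0.57 (limma adjusted p = 0.000657), and FLRT2 fell by 0.61 (limma adjusted p = 0.000485). ADGRL1, a latrophilin, read -0.12 (limma adjusted p = 0.297). In Oct4med against Oct4low BCCs 0 of these 5 passed the test by limma, and TENM3 read 0.18 (limma adjusted p = 0.264) where TENM2 read -0.82.

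For ADGRG2, 7 other adhesion G protein-coupled receptors were tested, 2 higher and 2 lower in Oct4hi than in Oct4low BCCs (20.4% and 14.7% of all tested genes). ADGRD1 rose by 0.45 and ADGRE1 by 0.27, while ADGRF5 fell by 0.74 (limma adjusted p = 1.11e-05) and ADGRA3 by 0.26. ADGRE1 was highest in Oct4med BCCs, 0.57 above Oct4low. MYRF, the partner of TMEM98, read 0.19 in Oct4hi BCCs (limma adjusted p = 0.13).

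Of 14 tested nectins, desmosomal cadherins and immunoglobulin adhesion molecules, 4 were higher and 4 lower in Oct4hi than in Oct4low BCCs (20.4% and 14.7% of all tested genes). MCAM rose by 0.49 on its brightest probe set and read -0.0096 on the other. PVR rose by 0.41 on its brightest probe set and read 0.02, 0.07 and 0.39 on its others. ALCAM rose by 0.28, while DSC2 fell by 0.50 and CADM1 by 0.34. ALCAM and CADM1 were read on their brightest probe sets alone. CXADR, the coxsackievirus and adenovirus receptor, rose by 0.23 in Oct4med and fell by 0.24 in Oct4hi BCCs against Oct4low on its brightest probe set. Its other tested probe set read 0.22 (limma adjusted p = 0.0897) and -0.44.

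**Figure D3:**
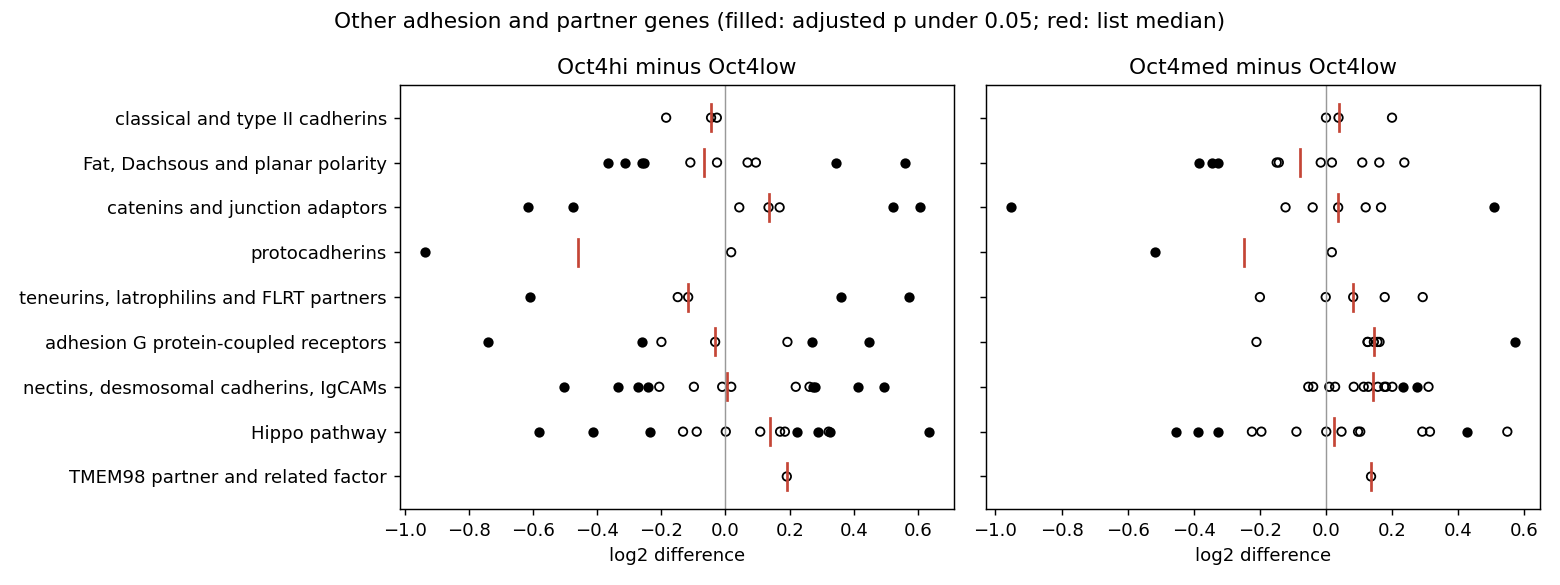
Log2 difference (horizontal axis) of each tested gene of the 9 lists in Oct4hi minus Oct4low and Oct4med minus Oct4low BCCs. Filled points passed a limma adjusted p of 0.05, open points did not, and red bars are list medians. In the left panel 16 genes were called higher and 17 lower, with PCDH7 (-0.94) lowest.

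The position of each gene on its chromosome was examined after its values were seen, with the 5 nearest tested genes on either side in the order of RefSeq. Around ADGRG2 on chromosome X, all 10 neighbours were higher in Oct4hi than in Oct4low BCCs, by 0.23 (PHKA2) to 0.56 (RPS6KA3), with a median of 0.33 against 0.995 for ADGRG2. In Oct4hi against Oct4med BCCs 9 of these 10 were higher, beside 18.2% of all tested genes and 46.4% of those on chromosome X. In Oct4med against Oct4low BCCs 0 were higher and 1, NHS, was lower, beside 5.68% and 11.7% of all tested genes. Without probe sets whose names end in _x_at or _s_at, 6 of the ADGRG2 neighbours were called higher.

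Of the 291 tested genes placed on chromosome X, 134 (46.0%) were higher in Oct4hi than in Oct4low BCCs, against 20.4% of all tested genes. Their median difference was 0.22, where the autosome medians ran from -0.07 to 0.11. The other genes had fewer neighbours that were called. Of 10 neighbours each, 4 were higher and 2 lower around TMEM98 in Oct4hi against Oct4low BCCs, and 3 higher and 1 lower around FAT4. Around TENM2 3 were higher and 0 lower, and around CDH11 2 higher and 2 lower. These counts stand beside 20.4% higher and 14.7% lower among all tested genes. SPRY1, near FAT4 and an inhibitor of receptor tyrosine kinase signalling, fell by 1.31 in Oct4hi BCCs, and CCL2, a chemokine gene next to TMEM98 in this order, rose by 0.95.

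**Figure D4:**
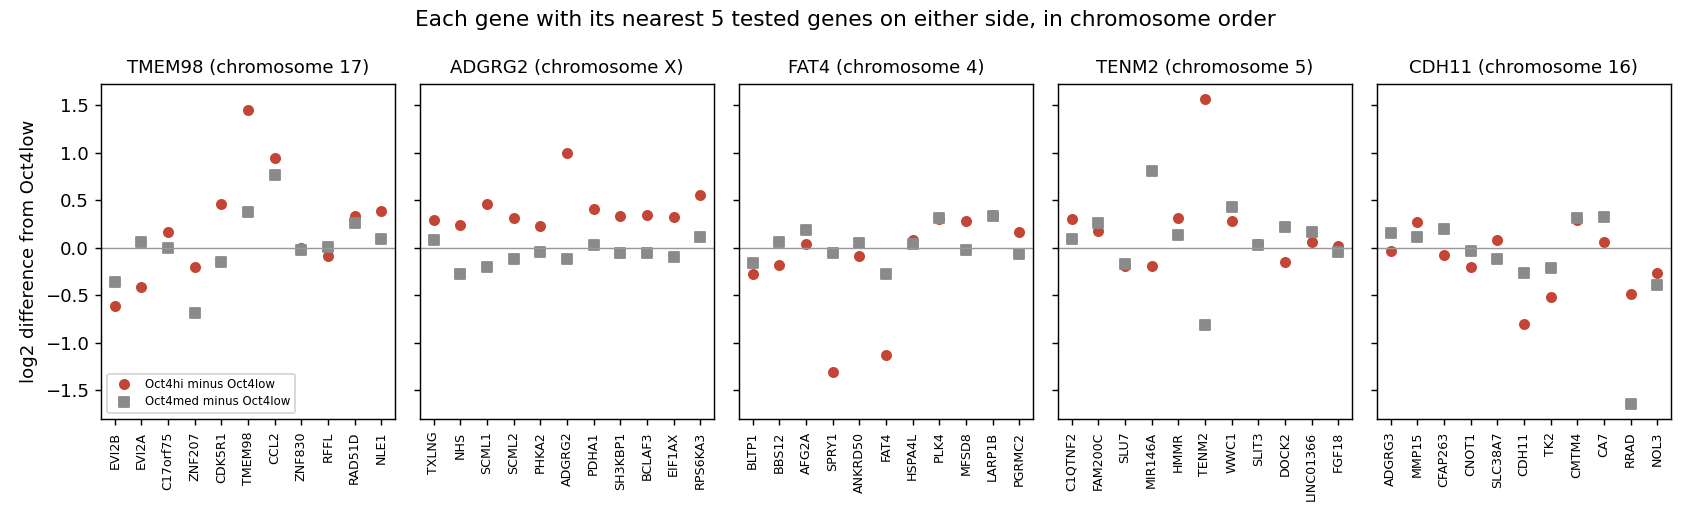
Log2 difference from Oct4low (vertical axis) of each gene and its 5 nearest tested genes on either side, in chromosome order (horizontal axis, not to scale). Circles are Oct4hi and squares Oct4med BCCs. All 10 neighbours of ADGRG2 lie above 0 in Oct4hi BCCs, between 0.23 and 0.56. MIR146A is the symbol the platform annotation gives to a probe set that does not measure the mature microRNA.

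The genes most like each of the 5 across the 10 arrays were ranked by Pearson's r over 7643 other tested genes, as a description with no test, since the arrays share 3 subsets. From 78 (FAT4) to 172 (TENM2) genes had r over 0.95 with one of the 5, so those named are not set apart from many others. Ranking by Spearman's rho kept 0 of the 5 named for each gene. MARCHF3, RHEBL1, ALOX5AP, ECSCR and DAPK1 were nearest to TMEM98 (r from 0.989 to 0.996), and DAPK1, a death-associated kinase, ran from 4.91 in Oct4low to 7.06 in Oct4hi BCCs. MAGEH1, PALS1, MAOA, CNN1 and PDHA1 were nearest to ADGRG2 (r from 0.98 to 0.99). MAGEH1, MAOA and PDHA1 lie on chromosome X, and PDHA1 is among the 10 neighbours of ADGRG2. PALS1 is a polarity scaffold of tight junctions, and MAOA, monoamine oxidase A, ran from 7.95 to 9.33.

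NRP1, TNFRSF21, SPINT2, MED28 and KLF12 were nearest to FAT4 (r from 0.98 to 0.99), and NRP1, a co-receptor for semaphorins and VEGF, ran from 12.27 to 11.62. PQBP1, LOC105371703, GABBR2, NANP and STXBP6 were nearest to TENM2 (r from 0.994 to 0.997), and PQBP1 also lies on chromosome X. All 5 were lowest in Oct4med BCCs as TENM2 was, and GABBR2, a subunit of the GABA-B receptor, read 6.36, 5.83 and 7.38 in Oct4low, Oct4med and Oct4hi BCCs. TOX2, SOX4, TRIB2, ANXA1 and NPAS2 were nearest to CDH11 (r of 0.99), and SOX4, a transcription factor, fell from 9.33 to 8.78 and 8.03.

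With each subset's mean taken out, r between TENM2 and ADGRG2 was -0.73, against 0.95 over all 10 arrays, so the likeness of these 2 genes was that of the subset means. This pair had the lowest such r between genes. Other pairs ran from -0.67 (ADGRG2 and CDH11) to 0.57 (TENM2 and CDH11) on the brightest probe sets. These values rest on few arrays, and ADGRG2 was below the array medians outside Oct4hi BCCs, so no relation is read from them.

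**Figure D5:**
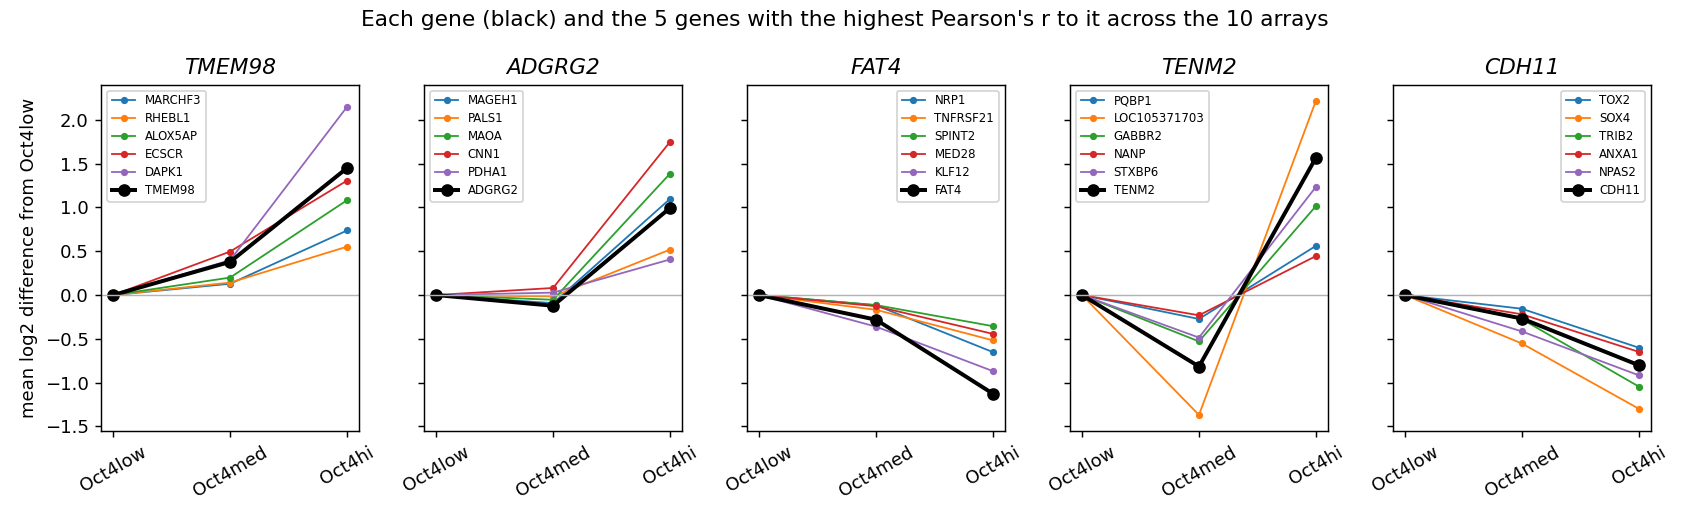
Mean log2 difference from Oct4low (vertical axis) in Oct4low, Oct4med and Oct4hi BCCs for each of the 5 genes (black) and the 5 genes with the highest Pearson's r to it (colours). The TENM2 group dips in Oct4med BCCs and peaks in Oct4hi BCCs, while the means of the FAT4 and CDH11 groups fall from Oct4low through Oct4med to Oct4hi.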

How the data were processed

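Total RNA of 10 sorted MDA-MB-231 samples (4 Oct4low, 2 Oct4med, 4 Oct4hi), labelled as biological replicates, was read on U133 Plus 2.0 arrays. The authors background-corrected the intensities, log2-transformed and RMA normalized them and removed features near background or with little change, and deposited log2 values for 25750 probe sets. The genome build was not given in the sources used here. The platform annotation gave 1 gene symbol to 18682 probe sets, several to 799 and none to 6246, and 23 were controls. Tested probe sets were at or above the array median on at least 2 arrays (13883 probe sets, 7644 genes, each by its brightest probe set). A mean per subset was fitted with limma 3.58.1 in R 4.3.3, with two-sided moderated tests adjusted by Benjamini-Hochberg over tested probe sets and called at 0.05. The fit was tested on simulated data. Genes named were all probe sets of the 5 genes, the 5 genes most like each, up to 3 called genes with the largest change per list and comparison, and marker genes. List members outside this rule (CDH3, DCHS1, PCDH18, ADGRL1, CELSR1, ALCAM, CADM1, MYRF) and chromosome neighbours were named after their values were seen. The 5 genes and the lists were chosen with earlier results of these data known. Levels were not compared between probe sets. Alternatives changed the filter, normalization, array weights, variance prior, samples fitted, test, replicate block, probe sets and arrays. The number of arrays, above all the 2 Oct4med arrays, limits the precision.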

Additional observations from a re-analysis of the deposited data

Results flagged for a closer look

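On CDH11 probe set 207172_s_at, Oct4hi replicate 1 read 8.32 while the other Oct4hi arrays read 8.24. Its gap to the nearest array was 0.935 of the group's range, past Dixon's limit for 4 samples. It was 1 of 16 groups of 4 arrays examined, and chance flags about 1 in 20. All 4 Oct4hi arrays remained below the Oct4low arrays.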

How the results depend on the processing

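The differences of the 5 genes in Oct4hi against Oct4low and Oct4med BCCs kept their direction under every alternative run. Quantile normalizing again gave TENM2 1.47 and 2.22 against Oct4low and Oct4med, TMEM98 0.98 against Oct4med, and CDH11 -0.87 and -0.72. CDH11 read -0.97 and -0.70 by its most variable probe set and -0.89 and -0.74 without _x_at and _s_at probe sets. Leaving out each array in turn gave, against Oct4low, TMEM98 1.42 to 1.48, ADGRG2 0.96 to 1.04, FAT4 -1.18 to -1.05, TENM2 1.54 to 1.60 and CDH11 -0.82 to -0.78.

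In Oct4med against Oct4low BCCs, TENM2 stayed past the threshold under every alternative (adjusted p from 2.93e-07 to 0.0155), and FAT4 and ADGRG2 stayed outside it (the stricter filter left out both, so they have no value there). TMEM98 lost its call with the replicate block (0.34, limma adjusted p = 0.0722) and the methods' t-test after adjustment (0.38, adjusted p = 0.0741), and ran from 0.35 to 0.41 without each array. CDH11 lost its call with array weights (-0.27, limma adjusted p = 0.0644), a common median (-0.27, 0.0629), no filter (-0.27, 0.102), only the groups compared (-0.27, 0.0787), quantile normalization (-0.14, 0.188), the replicate block (-0.29, 0.0908) and without _x_at and _s_at probe sets (-0.15, 0.422). It ran from -0.31 to -0.23 without each array, and the cause was not tested. Whether the replicate numbers pair the arrays could not be decided. Deviations of same-numbered arrays correlated from -0.26 to 0.28 over 8 pairs, and of differently numbered arrays from -0.51 to 0.51 over 24 pairs. The deviations of the Oct4med arrays mirror each other, so the pairs that include them are not independent. Whether a call lost under the replicate block reflects a weaker effect was not tested.

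Of the 63 list genes, the number higher in Oct4hi against Oct4low BCCs (16) was 9 without _x_at and _s_at probe sets, and 13 to 17 without each array. The number higher against Oct4med (8) was 5 with quantile normalization, the methods' t-test or without those probe sets, and 3 to 11 without each array, with 3 without Oct4med replicate 1. The number lower (13) ran from 6, without Oct4med replicate 1, to 13 as each array was left out, and was 14 by the most variable probe sets. The number higher in Oct4med against Oct4low (5) was 2 with array weights, only the groups compared or the replicate block. It was 3 with a common median, no filter or the methods' t-test, 1 without those probe sets, and 2 to 4 without each array. It rose to 7 with quantile normalization and to 6 by the most variable probe sets. The number lower (8) was 5 with the replicate block or the methods' t-test and 9 with the intensity trend and robust prior. It ran from 3, without Oct4med replicate 1, to 8 as each array was left out. At the unadjusted p of 0.001 that the methods name, the methods' t-test called 16, 3 and 5 of the 63 in Oct4hi against Oct4low, Oct4med against Oct4low and Oct4hi against Oct4med. Without _x_at and _s_at probe sets, MCAM reversed to -0.0096 and -0.13 against Oct4low and Oct4med, and WWC1 to -0.016 in Oct4med against Oct4low. Of 965 values of named list genes under these alternatives, 881 kept their call, 81 lost it and 3 reversed.

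Alternatives for chromosome X were added after seeing the data. The ADGRG2 neighbours called higher were 7 to 10 without each array and 6 without _x_at and _s_at probe sets, and the share of chromosome X genes called higher ran from 38.5% to 47.4% without each array and from 39.9% to 65.8% otherwise. Of the 5 genes most like each gene, 0 were kept by Spearman's rho, and 2 (1 for TENM2) with only the Oct4hi and Oct4low arrays.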
